A study of Mus musculus with 6 samples.

Results

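The genes described here are 37 genes of glycolysis and of the transcriptional response to low oxygen, chosen by symbol from the 48368 symbols of the deposited count tables. They comprise 19 glycolytic enzymes and regulators of glycolytic flux, 4 pyruvate dehydrogenase kinases, 4 genes of the hypoxia-inducible factor and its oxygen sensors, and 10 other hypoxia targets. All 37 were found on 1 row each, and all 37 passed the filter on low counts. RNA-seq libraries came from cultured cancer-associated fibroblasts of mammary tumours of MMTV-PyMT mice, in which the mammary tumour virus promoter drives polyomavirus middle T antigen in mammary epithelium. The 3 KO libraries are labelled homozygous (Hic-5-/-) and the 3 HET libraries heterozygous (Hic-5+/-) for loss of Hic-5, a focal adhesion adaptor encoded by Tgfb1i1, and the donors of all 6 carried the PyMT transgene. The cells were separated from tumour organoids by centrifugation and grown in serum-containing medium. The labels name no low-oxygen treatment, no wild-type group and no age. The series text calls the libraries technical triplicates while the titles mostly carry different numbers, so whether they came from separate animals is not known. A p-value here reflects no more than the variation among the 6 libraries. Between 2 libraries of the same label the chi-square per degree of freedom was 170 to 375, far more than counting error alone gives. The source of this variation was not tested.

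Glycolysis splits glucose into pyruvate, which lactate dehydrogenase can reduce to lactate or the pyruvate dehydrogenase complex can pass to the citric acid cycle. The pyruvate dehydrogenase kinases shut that complex off by phosphorylation. Hypoxia-inducible factor, a pair of an oxygen-labile alpha subunit and a stable partner, switches on most glycolytic enzymes and a set of further targets when oxygen is low. In oxygenated cells prolyl hydroxylases of the EGLN family mark the alpha subunit for degradation, so the amount of this protein is set largely after translation. In tumours, fibroblasts with high glycolysis are known to release lactate.

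The libraries held 24954273 to 42470598 estimated counts. Tgfb1i1 stood at 90.4, 0.232 and 156 CPM (counts relative to library size, scaled by TMM factors) in KO replicates 1 to 3, against 223, 348 and 125 CPM in HET replicates 1 to 3, so only KO replicate 2 nearly lacked the transcript. That library also nearly lacked Col1a2, a type I collagen chain of fibroblasts, at 0.491 CPM against 577 to 5110 CPM in the other 5. Other fibroblast markers were mixed there. Col1a1, Thy1 and Dcn were also lowest in KO replicate 2, at 2.56, 0.981 and 0.775 CPM. Postn, Vim and Col3a1 stood at 440, 2870 and 21.8 CPM, above KO replicate 1 at 13.3, 2020 and 9.44 CPM. Summed fibroblast markers (12 genes) were 7290, 3700 and 6670 CPM in KO, against 19400, 9980 and 9620 CPM in HET, lower in every KO library. The genes described here also mostly had lower means in KO, and the part of the fibroblast sum in their values was not tested. Of the 11 of these markers that were tested, 10 were lower in KO and 1, Dcn, was higher (0.10 on the log2 scale). The 3 collagen genes Col1a1, Col1a2 and Col3a1 lay lower in every KO library, at -3.28, -2.35 and -4.41, while Vim and Pdgfra overlapped, at -0.19 and -0.25. The summed epithelial markers of KO replicate 2 (12 genes) reached 101 CPM, against 19.4 to 70.5 CPM in the others. KO replicate 2 was the highest library for 9 of these 12 genes, with Krt18 at 37.9 CPM against 0.227 to 2.93 CPM and Cdh1 at 14.6 CPM against 0.196 to 1.47 CPM in the others. Krt19 went the other way, at 0.542 CPM in KO replicate 2 against 13 to 64.1 CPM, and made up most of the sum in the others. Summed leukocyte markers (10 genes) reached 1120 CPM in KO replicate 3 and 1390 CPM in HET replicate 2, against 7.72 to 39.6 CPM in the other 4, and most of this was the macrophage lysozyme gene Lyz2. Cd3e, of T cells, was at 0 in KO replicate 3 and HET replicate 2. Summed proliferation markers (6 genes) ran from 400 to 1810 CPM in KO and from 92.4 to 642 CPM in HET. HET replicate 3 and KO replicate 3 share the number in their titles.

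Across the 37 genes, 34 had a lower level in KO than in HET and 3 a higher one. Their median log2 fold change was -0.71, while of the 17584 genes tested 49.1% were lower and the median was 0.01. None of the 37 passed the adjusted threshold of 0.05 in edgeR's quasi-likelihood test, where 0% of all genes passed and no adjusted p was below 0.579. Without adjustment, 7 members had a p under 0.05, all lower in KO (18.9% of the members, against 4.29% of all genes lower, 4.3% higher and 8.59% in either direction), namely Bnip3, Pdk1, Hif1a, Bnip3l, Higd1a, Pfkl and Kdm3a. DESeq2 called 2 members, Bnip3 and Pdk1, both lower in KO, where it called 1.32% of all genes, 0.933% lower and 0.387% higher. Every KO library lay below every HET library in 9 members (24.3%, against 7.42% of all genes), namely Eno2, the 4 kinases Pdk1 to Pdk4, Hif1a, Bnip3, Bnip3l and Kdm3a, and no member showed the opposite order (background 8.1%). Without KO replicate 2, 36 of the 37 were lower, 5 had an unadjusted p under 0.05 (background 3.09%), and 10 did not overlap (background 10.1%). Without KO replicate 3 and HET replicate 2, the libraries with leukocyte transcripts, 32 were lower and 3 had an unadjusted p under 0.05 (background 3.71%). In these bulk cultures fewer cells of a type and less RNA per cell cannot be told apart.

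**Figure D1:**
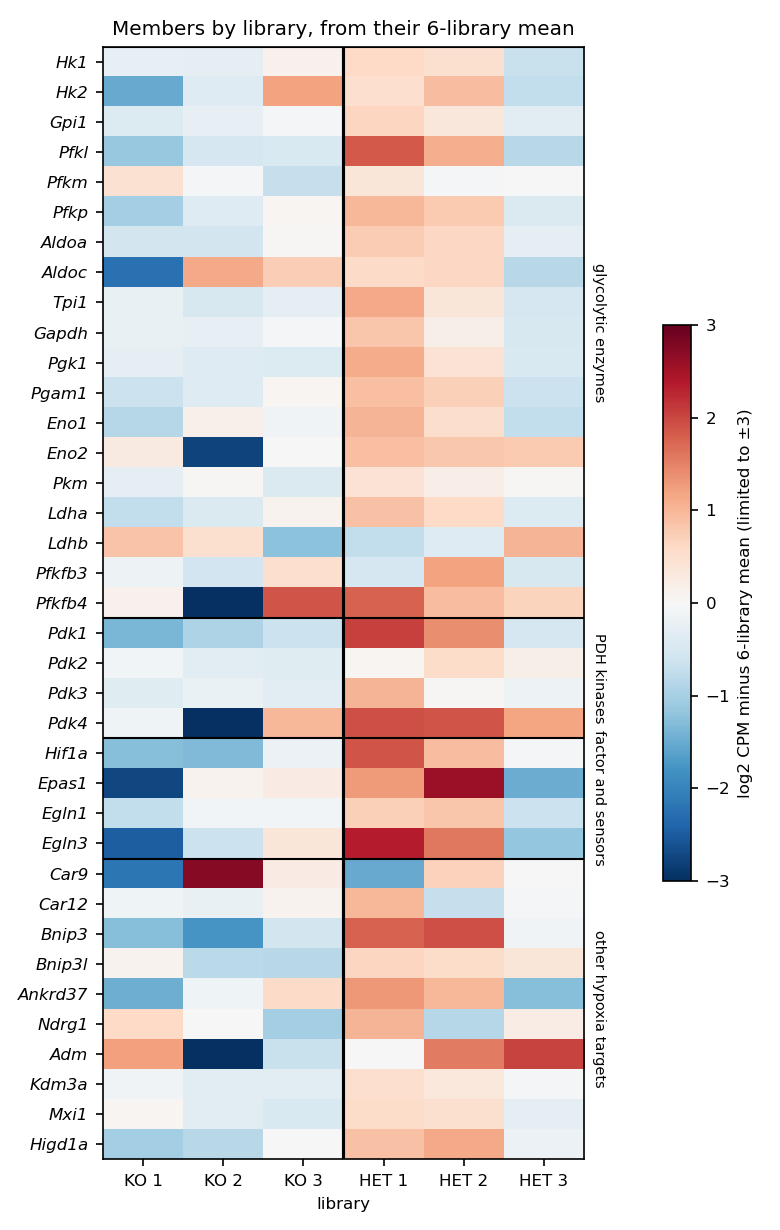
Each row is a gene and each column a library, KO on the left and HET on the right, coloured by log2 CPM minus the gene's mean over the 6 libraries (limited to 3 in either direction). HET replicates 1 and 2 are above the mean in most rows, and HET replicate 3 averages -0.28 over the glycolytic enzymes.

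HET replicate 1 was the highest library for 24 of the 37 genes (64.9%), where it was the highest for 15.4% of all genes tested, and HET replicate 2 was the highest for 6 (16.2%, against 16.9%). KO replicate 1 was the lowest library for 16 members (43.2%, against 17.8% of all genes), and KO replicate 3 the highest for 2 (5.41%, against 13.2%). HET replicate 1 and HET replicate 2 each lay above every KO library in 29 members (78.4%), against 22.9% and 28.5% of all genes. HET replicate 3 did so in 11 members (29.7%, against 23.8% of all genes). It lay below KO replicate 3, whose title carries the same number, in 22 members (59.5%, against 50.2%). Without HET replicate 3 the members at an unadjusted p under 0.05 numbered 20, all lower in KO (54.1%, against 3.54% of all genes), and none of them passed the adjusted threshold (edgeR, adjusted p of 0.816 or more). Without both HET replicate 3 and KO replicate 3 the number lower in KO was 16 (43.2%, against 5.77%). Without HET replicate 1 it was 3 (8.11%, against 4.72%). The leukocyte sum was 25.3 CPM in HET replicate 1 and 1390 CPM in HET replicate 2. In KO replicate 3 it was 1120 CPM. The mean log2 deviation of the 37 genes from their 6-library mean was -0.05 there, against -0.60 and -0.71 in KO replicates 1 and 2. The part of leukocyte transcripts in these values was not tested. The mean of KO replicate 2 includes Pdk4, Pfkfb4, Adm and Eno2, at -5.9, -5.4, -4.1 and -2.8, and Car9 at 2.7. KO replicate 2 was the lowest library for 8 members (21.6%, against 23.5% of all genes).

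The 300-base windows around the RefSeq transcription starts (build GRCm38.p6) of 4 members, 1 for each role, are shown because the core of the hypoxia response element can be read in them. Capitals mark ACGTG or GCGTG on either strand, so that CACGT and CACGC are marked too. CACGTG, the E-box bound by several other factors, holds ACGTG on both strands and was counted on each.

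Bnip3 (chr7:138909457-138909756, minus strand): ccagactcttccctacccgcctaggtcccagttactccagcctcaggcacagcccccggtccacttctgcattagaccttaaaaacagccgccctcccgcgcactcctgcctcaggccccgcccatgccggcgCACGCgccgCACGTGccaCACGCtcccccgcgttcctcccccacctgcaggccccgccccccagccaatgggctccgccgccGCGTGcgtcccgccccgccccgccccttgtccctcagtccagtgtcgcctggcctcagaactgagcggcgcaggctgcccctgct

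Pdk1 (chr2:71872974-71873273, plus strand): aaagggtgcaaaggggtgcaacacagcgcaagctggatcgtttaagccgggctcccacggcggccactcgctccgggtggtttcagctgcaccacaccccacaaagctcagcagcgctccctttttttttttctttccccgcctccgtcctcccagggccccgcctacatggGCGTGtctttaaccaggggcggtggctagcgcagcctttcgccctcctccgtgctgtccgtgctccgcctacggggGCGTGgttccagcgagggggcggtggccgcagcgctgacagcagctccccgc

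Hif1a (chr12:73907617-73907916, plus strand): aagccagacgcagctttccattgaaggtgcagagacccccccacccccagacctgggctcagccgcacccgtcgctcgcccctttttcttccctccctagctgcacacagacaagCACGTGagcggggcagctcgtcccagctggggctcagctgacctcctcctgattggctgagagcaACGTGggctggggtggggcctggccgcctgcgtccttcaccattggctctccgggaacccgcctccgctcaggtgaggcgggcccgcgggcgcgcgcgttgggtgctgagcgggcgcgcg

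Ldha (chr7:46845554-46845853, plus strand): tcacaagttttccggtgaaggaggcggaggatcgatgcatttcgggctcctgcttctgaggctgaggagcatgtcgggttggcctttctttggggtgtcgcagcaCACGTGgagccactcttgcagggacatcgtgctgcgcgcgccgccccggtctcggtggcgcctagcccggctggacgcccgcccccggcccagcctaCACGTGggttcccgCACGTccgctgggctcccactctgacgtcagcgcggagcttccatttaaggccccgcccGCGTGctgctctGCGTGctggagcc

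The Bnip3 window held 2 matches of ACGTG, both within 1 CACGTG, and 3 of GCGTG. The printed Pdk1 window held 2 matches of GCGTG and none of ACGTG, and a second RefSeq window of Pdk1 held neither motif. The Hif1a window held 3 matches of ACGTG, with 1 CACGTG among them, at a start inside the GENCODE span of the gene, and the printed Ldha window held 5 of ACGTG, with 2 CACGTG, and 2 of GCGTG. A second window of Ldha held 2 of GCGTG and none of ACGTG. For Pdk1 and Ldha the window with more matches is shown. Of the 37 members, 34 matched a RefSeq window, and 30 of these had ACGTG or GCGTG in at least 1 of their windows. Counted by window, 39 of 52 member windows (75%) held either motif, against 43.8% of 32851 windows of the same length. For ACGTG alone the shares were 48.1% and 19.6%. Some windows of the same gene overlap, as for Eno1, Aldoa and Pfkm, so the same match can be counted in more than 1 window. Both motifs hold a CG pair, and member windows had a median GC content of 60.8%, against 52.7% for all windows, so the shares were not compared at equal composition. Eno2, whose KO libraries all lay below the HET libraries, had neither motif in its single window. A match describes these letters only and does not show that a factor binds there.

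Among the targets outside glycolysis, Bnip3, a mitophagy receptor of the outer mitochondrial membrane (chromosome 7, 138890836 to 138909519, GRCm38, GENCODE M21), had the smallest unadjusted p of all 37 members. Bnip3 stood at 18.2, 13.1 and 30.5 CPM in KO replicates 1 to 3, against 152, 170 and 41.2 CPM in HET replicates 1 to 3. All 3 KO libraries were below all 3 HET libraries, and HET replicate 3 was much nearer to KO replicate 3 than to the other HET libraries. Its means were 20.6 ± 8.92 CPM in KO and 121 ± 69.6 CPM in HET (SD, n = 3 each), and the log2 fold change was -2.56 ± 0.60 (SE; edgeR adjusted p = 0.579, DESeq2 adjusted p = 0.00688). Its paralog Bnip3l, also a mitophagy receptor (chromosome 14, 66985239 to 67008877), stood at 147, 77.7 and 76.2 CPM in KO, against 212, 199 and 175 CPM in HET. Here HET replicate 3 stayed with the other HET libraries, and the log2 fold change was -0.96 ± 0.31 (edgeR adjusted p = 0.579). Bnip3 made up 24.6, 30.7 and 51.2% of the pair in KO, against 65.3, 69.1 and 38.2% in HET, when CPM was divided by transcript length. The shares overlapped through KO replicate 3 and HET replicate 3.

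Higd1a, a hypoxia-induced protein of the inner mitochondrial membrane (chromosome 9, 121848563 to 121858362), stood at 22.6, 25.5 and 45.6 CPM in KO, against 84.9, 101 and 40.6 CPM in HET. HET replicates 1 and 2 were above all KO libraries and HET replicate 3 was among them, with a log2 fold change of -1.28 ± 0.43 (edgeR adjusted p = 0.579). Kdm3a, a histone demethylase (chromosome 6, 71588972 to 71632990), had a small difference with little spread in KO. It stood at 44.9, 38.8 and 38.7 CPM in KO, against 69.3, 60.3 and 46.5 CPM in HET, a log2 fold change of -0.53 ± 0.21 (edgeR adjusted p = 0.579). The groups did not overlap, but KO replicate 1 and HET replicate 3 were close.

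The remaining 6 targets overlapped between the labels. Adm, the secreted vasodilator adrenomedullin, stood at 223, 5.37 and 60.1 CPM in KO, against 95.9, 279 and 387 CPM in HET. It was lowest by far in KO replicate 2 and, unlike most members, highest in HET replicate 3. Ankrd37, an ankyrin repeat protein, stood between 0.796 and 3.45 CPM in KO and between 0.902 and 5.7 CPM in HET. Mxi1, an antagonist of Myc, ran from 24.7 to 34.9 CPM in KO and from 27.7 to 49.3 CPM in HET. Ndrg1, a stress-responsive gene, ran from 22.8 to 69.8 CPM in KO and from 25.6 to 93.5 CPM in HET. The cell surface carbonic anhydrases, which are used as hypoxia markers in tumours, were scarce. Car12 ran from 1.21 to 1.55 CPM in KO and from 0.853 to 2.9 CPM in HET. Car9 stood at 0.136, 5.81 and 0.991 CPM in KO, against 0.248, 1.37 and 0.824 CPM in HET, and its log2 fold change of 1.5 became -0.57 without KO replicate 2. Car9 was highest in the library with the highest epithelial marker sum, whose part in this value was not tested.

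**Figure D2:**
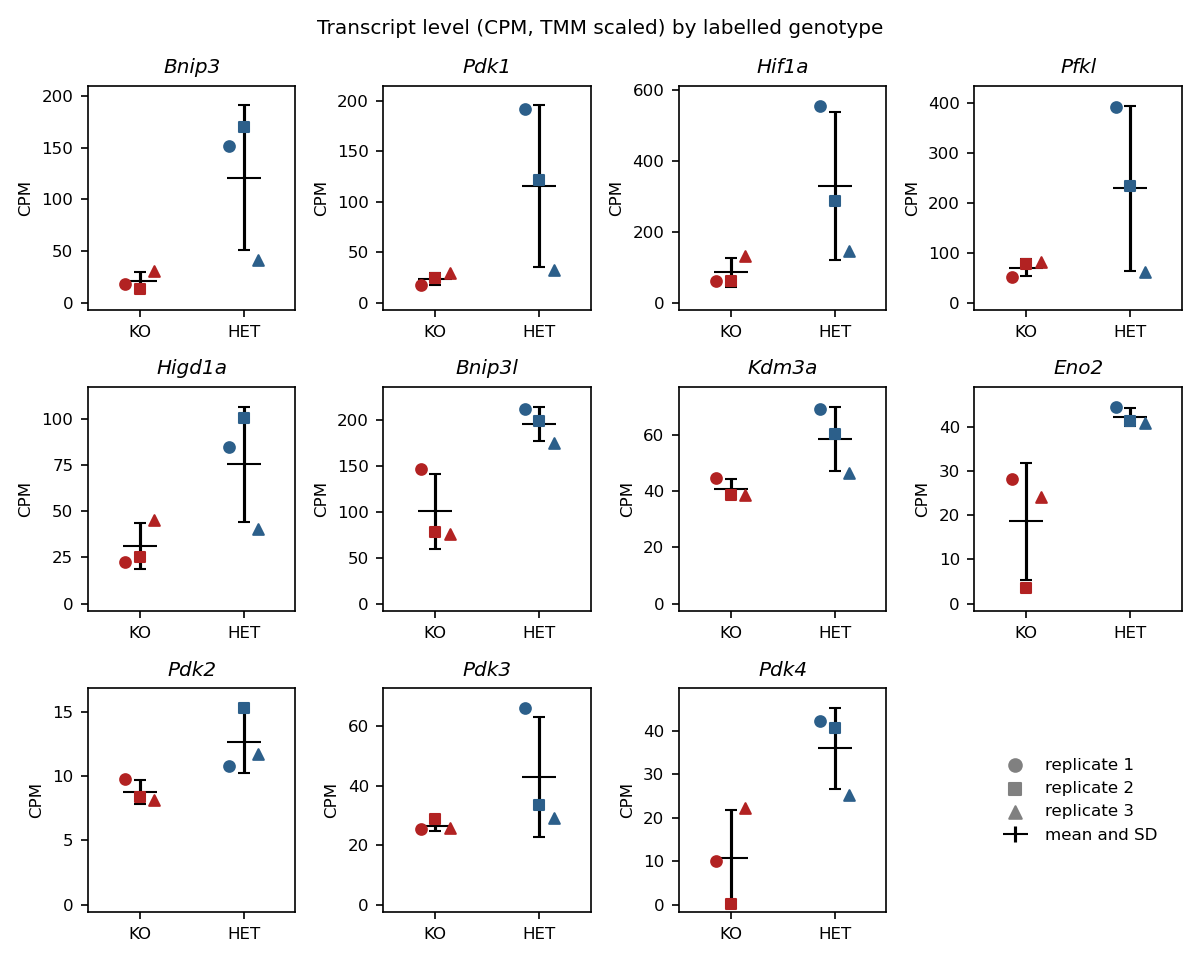
Level in CPM (linear axis) of the 11 members that did not overlap between the labels or had an unadjusted p under 0.05, with KO on the left and HET on the right of each panel. Points are libraries, bars are mean and SD (n = 3 each); HET replicate 3 is the lowest HET point in 10 panels and the middle one for Pdk2.

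All 4 pyruvate dehydrogenase kinases were lower in every KO library than in every HET library, an order that 7.42% of all genes showed. Only Pdk1 of the 4 had an unadjusted p under 0.05 in edgeR (background 4.29%). Pdk1, the kinase best known as a target of the hypoxia-inducible factor (chromosome 2, 71873224 to 71903858), stood at 17.6, 24 and 29.5 CPM in KO, against 192, 122 and 32.4 CPM in HET. KO replicate 3 and HET replicate 3 were close, while HET replicates 1 and 2 stood far above all others. Its means were 23.7 ± 5.94 CPM in KO and 115 ± 79.9 CPM in HET (SD, n = 3 each), with a log2 fold change of -2.28 ± 0.63 (SE; edgeR adjusted p = 0.579, DESeq2 adjusted p = 0.0336). Pdk4, the kinase that rises with fasting in muscle and liver (chromosome 6, 5483351 to 5496309), stood at 10, 0.129 and 22.2 CPM in KO, against 42.2, 40.6 and 25.3 CPM in HET. KO replicate 2 held 5 counts of Pdk4, and the log2 fold change was -1.74 ± 1.29 (edgeR adjusted p = 0.676). Pdk3 (chromosome X, 93764607 to 93832201) stood at 25.3, 28.6 and 25.6 CPM in KO, against 66.2, 33.4 and 29.2 CPM in HET, a log2 fold change of -0.70 ± 0.35 (edgeR adjusted p = 0.592). Pdk2, a widely expressed kinase (chromosome 11, 95026258 to 95041354), stood at 9.78, 8.32 and 8.09 CPM in KO, against 10.8, 15.3 and 11.7 CPM in HET, a log2 fold change of -0.53 ± 0.26 (edgeR adjusted p = 0.592). For Pdk2, Pdk3 and Pdk4 the nearest libraries of the labels were close.

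The mix of the 4 kinases also varied. Per length of transcript, Pdk1 made up 15.1, 21.2 and 20.5% of their sum in KO, against 43.4, 40.7 and 19.2% in HET. Pdk3 made up 52.9, 61.7 and 43.6% in KO, against 36.7, 27.3 and 42.5% in HET, so its share was higher in every KO library. On the deposited RPKM scale Pdk3 also had the higher share in every KO library, at 10.6 to 23.9% in KO against 5.73 to 10.2% in HET. These shares differ in size between the scales because deposited RPKM is divided by the genomic span of a gene, introns included.

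Hif1a, the main oxygen-labile alpha subunit (chromosome 12, 73901375 to 73947530), stood at 62, 60.1 and 133 CPM in KO, against 557, 286 and 145 CPM in HET. The labels did not overlap, with KO replicate 3 just under HET replicate 3. Its means were 85.1 ± 41.6 CPM in KO and 329.6 ± 210 CPM in HET (SD, n = 3 each), and the log2 fold change was -1.95 ± 0.58 (SE; edgeR adjusted p = 0.579, DESeq2 adjusted p = 0.0633). Epas1, which encodes the alpha subunit of vessels and macrophages, was scarce in most libraries, at 0.637, 4.88 and 5.43 CPM in KO, against 11.1, 27.6 and 1.57 CPM in HET. It was highest in HET replicate 2 and low in HET replicate 3. Summed pericyte and smooth muscle markers (7 genes) were 347 CPM in HET replicate 2, with Myh11 at 244 CPM, against 38.1 to 90.6 CPM in the others. The endothelial sum (6 genes) was 6.31 CPM there and 13.1 CPM in KO replicate 1. The part of leukocyte, smooth muscle or endothelial transcripts of HET replicate 2 in the Epas1 value was not tested. Hif1a held 93.9 to 99.2% of the 2 alpha subunits per length of transcript in KO and 92.9 to 99.1% in HET.

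The oxygen sensor Egln3, itself induced by the factor, had a wide range. Egln3 stood at 3.14, 11.2 and 22.5 CPM in KO, against 89.6, 52.6 and 7.81 CPM in HET, so HET replicate 3 was below KO replicates 2 and 3, and the log2 fold change was -2.03 ± 1.00 (edgeR adjusted p = 0.592). Egln1, the main sensor in most tissues, stood at 77.2, 123 and 123 CPM in KO, against 214, 230 and 83.7 CPM in HET, with a log2 fold change of -0.71 ± 0.42 (edgeR adjusted p = 0.627). Without HET replicate 3 the log2 fold changes were -2.53 for Egln3 and -1.04 for Egln1.

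Of the 19 glycolytic enzymes and flux regulators, 17 were lower in KO and 2 higher, with a median log2 fold change of -0.53 and a range of -1.72 to 0.19. Only Pfkl had an unadjusted p under 0.05, which 4.29% of all genes had in this direction. Only Eno2 did not overlap, with every KO library below every HET library, as in 7.42% of all genes. The enzyme with the smallest p was Pfkl, the liver-type phosphofructokinase (chromosome 10, 77986947 to 78010083). Pfkl stood at 50.3, 77.7 and 80.7 CPM in KO, against 392, 234 and 61.7 CPM in HET. HET replicates 1 and 2 stood several times above all KO libraries while HET replicate 3 was among them, and the log2 fold change was -1.72 ± 0.64 (edgeR adjusted p = 0.579). Without HET replicate 3 the value was -2.17 ± 0.37, and without HET replicate 1 it was -1.08. Eno2, the enolase best known from neurons (chromosome 6, 124760053 to 124769673), stood at 28.3, 3.41 and 24.1 CPM in KO, against 44.6, 41.3 and 40.8 CPM in HET. It was the enzyme with the tightest HET libraries, and the log2 fold change was -1.18 ± 0.70 (edgeR adjusted p = 0.621).

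The other steps followed 1 pattern over the libraries, with HET replicate 1 highest. Ldha, the lactate dehydrogenase subunit that favours lactate formation, stood at 697, 856 and 1250 CPM in KO, against 2140, 1740 and 873 CPM in HET. Aldoa, the main aldolase, stood at 575, 575 and 865 CPM in KO, against 1420, 1300 and 689 CPM in HET. Pgk1, phosphoglycerate kinase, stood at 301, 285 and 281 CPM in KO, against 807, 503 and 269 CPM in HET. In each of these, HET replicate 3 lay within the KO libraries or under them. The same held for Tpi1 (324 to 387 CPM in KO), Gapdh (157 to 178 CPM), Pgam1 (268 to 437 CPM), Eno1 (290 to 583 CPM), Gpi1 (159 to 208 CPM), Hk1 (116 to 153 CPM) and Pfkp (26.7 to 56 CPM), for which HET replicate 1 stood at 993, 331, 787, 1070, 334, 215 and 108 CPM. Pkm, pyruvate kinase, was the most abundant member per length of transcript by counts placed on the gene alone. Its levels were 1730, 2120 and 1550 CPM in KO, against 2810, 2390 and 2110 CPM in HET. With the near-identical copies described below added, Gapdh was higher. Means per kilobase over all libraries were then 2890 CPM for Gapdh and 1390 CPM for Pkm. The log2 fold changes of these 11 enzymes ran from -0.96 to -0.37.

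Some isoenzymes did not follow that pattern. Ldhb, the lactate dehydrogenase subunit that favours pyruvate formation, stood at 59.9, 45.9 and 14.1 CPM in KO, against 19.9, 25.3 and 67.2 CPM in HET. The libraries lowest in Ldhb, namely KO replicate 3 and HET replicates 1 and 2, were those highest in Ldha. Ldhb made up 9.46, 6.13 and 1.36% of the pair in KO, against 1.12, 1.74 and 8.57% in HET, per length of transcript. Hk2, the inducible hexokinase, stood at 13.3, 29.3 and 87.9 CPM in KO, against 54.2, 72.9 and 23 CPM in HET, and was again low in KO replicates 1 and 2 and HET replicate 3. Pfkm, the muscle-type phosphofructokinase, ran from 22.7 to 50.7 CPM in KO and from 35 to 47.4 CPM in HET, and its log2 fold change of -0.13 became 0.02 with library size alone as the scaling. Aldoc, an aldolase of brain, stayed at or under 3.38 CPM in KO and 2.33 CPM in HET, and its log2 fold change of 0.19 became -0.46 in limma-voom. Pfkfb3, which makes the activator of phosphofructokinase, ran from 19.6 to 41.8 CPM in KO and from 20.8 to 68.5 CPM in HET. Pfkfb4, a kinase and phosphatase of the same family, stood at 13.1, 0.232 and 44.4 CPM in KO, against 41.2, 22.8 and 19.3 CPM in HET. KO replicate 2 thus nearly lacked Pfkfb4, as it did Pdk4.

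**Figure D3:**
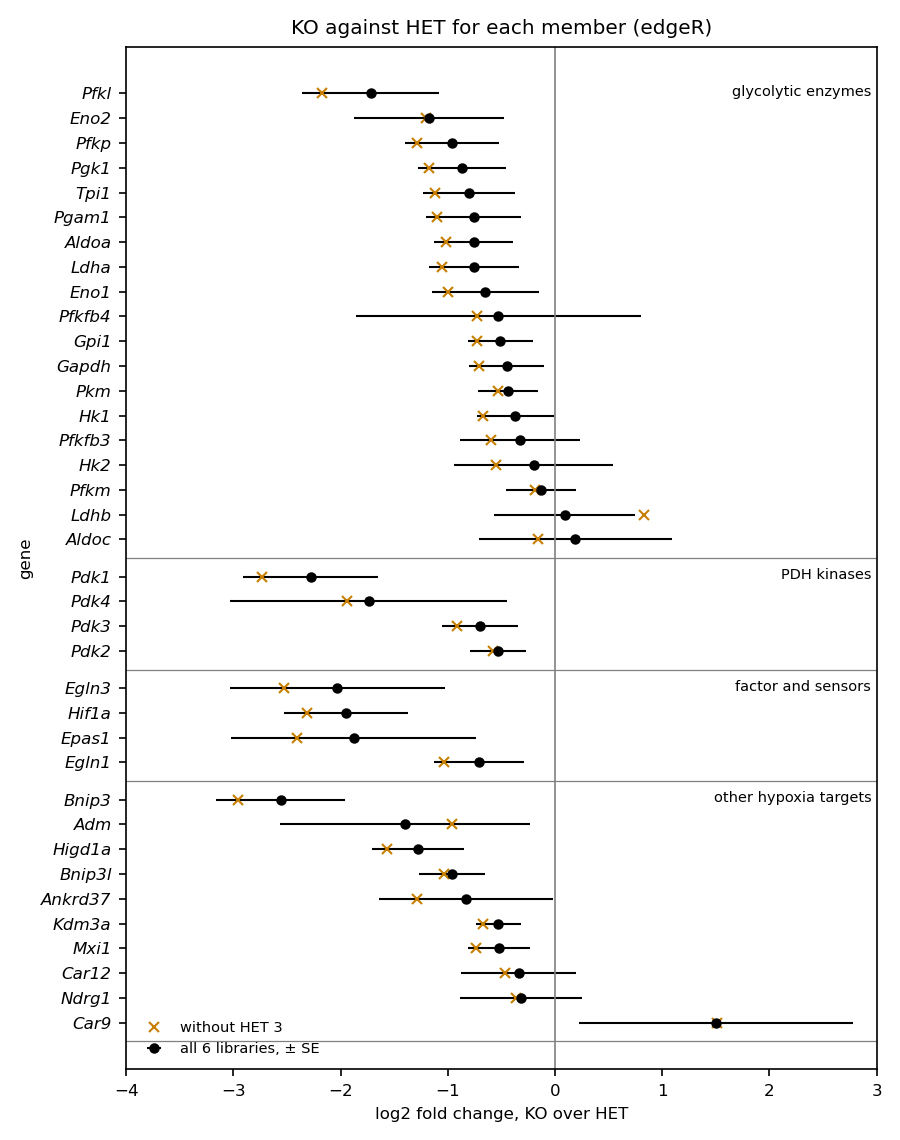
Log2 fold change of KO over HET (horizontal axis) for each member in edgeR, as points with SE over all 6 libraries and as crosses without HET replicate 3. The crosses lie further from 0 than their points for all members but Aldoc and Adm, the last at -0.96 without HET replicate 3 and -1.40 with it.

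The glycolytic enzymes were set against the other hypoxia targets in each library. The mean log2 deviation of the 19 enzymes from their 6-library mean was -0.46, -0.59 and 0.06 in KO replicates 1 to 3, against 0.74, 0.54 and -0.28 in HET replicates 1 to 3. That of the 10 other targets was -0.42, -0.58 and -0.29 in KO, against 0.62, 0.61 and 0.06 in HET. The mean of the targets did not overlap between the labels and that of the enzymes did. Single genes lower in every KO library were 3 of the 10 targets and 1 of the 19 enzymes (7.42% of all genes). The mean of the targets in HET replicate 3 rested on Adm, whose deviation there was 2.02. Without Adm, left out after its values were seen, the means were -0.60, -0.19 and -0.25 in KO, against 0.68, 0.51 and -0.15 in HET, so that HET replicate 3 and KO replicate 2 nearly met. With Adm included, targets minus enzymes came to 0.05, 0.01 and -0.35 in KO, against -0.12, 0.07 and 0.34 in HET. These were furthest from 0 in the libraries of the shared title number, which did not hold without Adm. The means of targets without Adm and of enzymes were then furthest apart in KO replicate 2, at -0.19 and -0.59. In HET replicate 3 they were -0.15 and -0.28. The median log2 fold changes were -0.68 for the targets and -0.53 for the enzymes, and the difference of -0.15 was within the spread between libraries and became 0.19 without KO replicate 3. No test was made over the lists, since the members were chosen with earlier results of these data known.

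**Figure D4:**
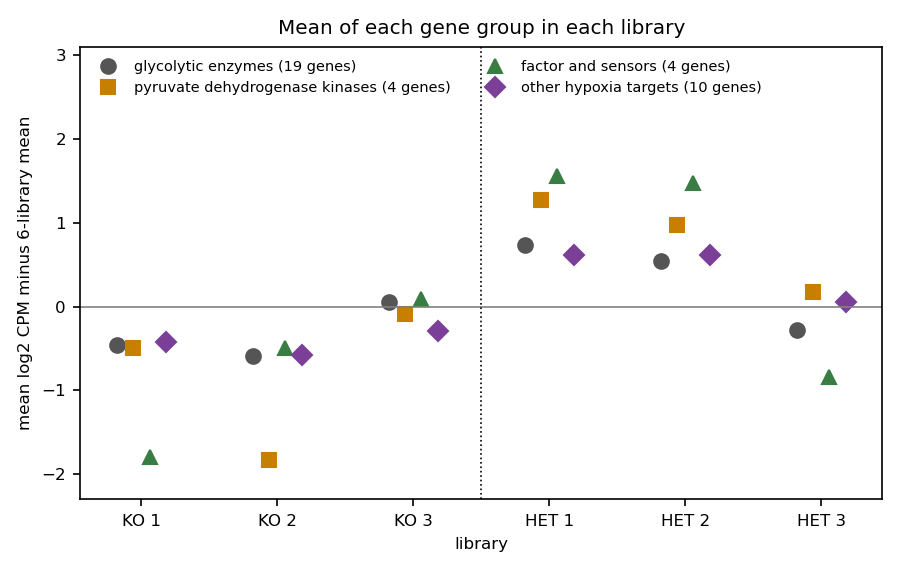
Mean log2 CPM minus the 6-library mean (vertical axis) for the 4 gene groups in each library, KO on the left and HET on the right. HET replicates 1 and 2 are above 0 in all 4 groups; HET replicate 3 ranges from -0.84 for the factor and sensors to 0.17 for the pyruvate dehydrogenase kinases.

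Levels of several enzymes depend on how reads were placed on near-identical copies, mostly processed pseudogenes that lack introns. Copies, defined as genes with at least 20% of their 40-base transcript windows found in a member, were found for 11 members. Some genes named as relatives of members were not among these copies and were not added. Aldoart1 and Aldoart2, named after Aldoa, held 3764 to 9797 and 2143 to 5695 counts per library. Ldha-ps2, named after Ldha, held 1431 to 3922 counts. For Gapdh, 76 copies held 94.5 to 94.9% of the counts placed on the gene and its copies together, in KO and HET alike. Copies held 75.6 to 76.7% for Pgk1, 72.1 to 81.4% for Eno1 and 59.5 to 61.3% for Gpi1. For Higd1a the share was 35.3 to 48.3%, for Bnip3 33 to 39% and for Bnip3l 24.4 to 31%. With copies added, Gapdh stood at 2960, 2870 and 3480 CPM in KO, against 6150, 4120 and 2540 CPM in HET. Its mean over the 6 libraries per kilobase of transcript was 154 CPM alone and 2890 CPM with copies, which moved it to the top of the members. With copies added the log2 fold change was -0.56 for Eno1, against -0.65 without them, the member that moved most. It was -0.46 against -0.45 for Gapdh, -0.86 against -0.87 for Pgk1 and -2.51 against -2.56 for Bnip3.

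**Figure D5:**
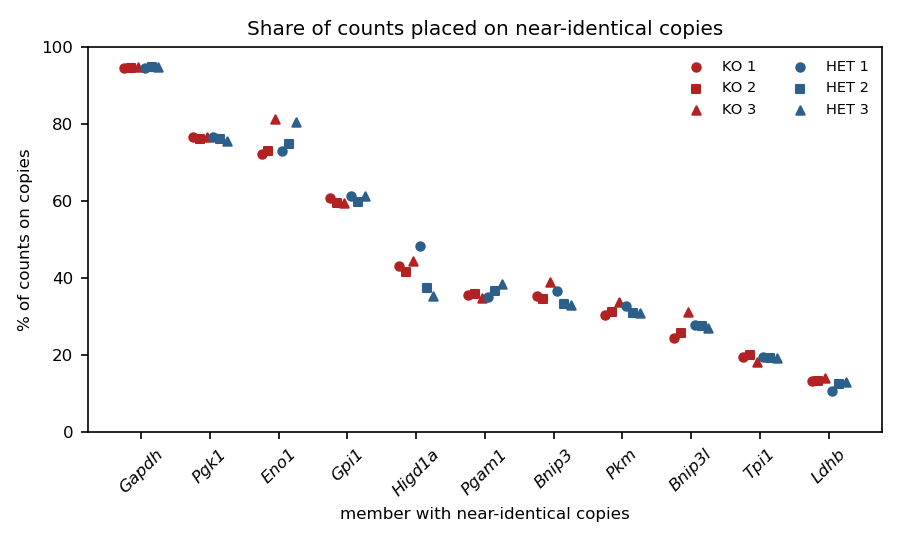
Percentage of counts placed on near-identical copies (vertical axis) for the 11 members that have them by the definition in the text. Points are libraries, KO in red and HET in blue. The share is nearly the same in every library for Gapdh and Pgk1, and for Eno1 it is highest in KO replicate 3 (81.4%) and HET replicate 3 (80.4%).

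Neighbouring pathways were read from lists that hold no member, with 0% of all genes past the adjusted threshold and none of the listed genes past it in edgeR. Of 35 tested further hypoxia targets, 26 had a lower level in KO (median -0.37 on the log2 scale), 7 were lower and 1 higher at an unadjusted p under 0.05 (backgrounds 4.29% and 4.3%), and 8 lay lower in every KO library (background 7.42%). Insig2, an endoplasmic reticulum brake on sterol synthesis, stood at 40.7, 41.5 and 35.6 CPM in KO, against 77.5, 89.2 and 78.2 CPM in HET. Its HET libraries were alike, and the log2 fold change was -1.06 ± 0.17 (edgeR adjusted p = 0.579, DESeq2 adjusted p = 0.000147). Fam162a, a mitochondrial hypoxia target, stood at 44.7, 49.5 and 81.5 CPM in KO, against 214, 196 and 83.3 CPM in HET. Ndufa4l2, a mitochondrial protein induced by hypoxia, stood at 0.159, 0.0258 and 0.833 CPM in KO, against 20.2, 44.2 and 1.29 CPM in HET (DESeq2 adjusted p = 0.000694).

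Of 14 tested genes of sugar and lactate transport and glycogen, 10 were lower in KO (median -0.56). An unadjusted p under 0.05 was found for 2 of the 14, both lower (background 4.29%). Ppp1r3c, which targets a phosphatase to glycogen, stood at 8.92, 2.01 and 1.35 CPM in KO, against 43.7, 12.6 and 38 CPM in HET (DESeq2 adjusted p = 0.031). Pgm2, a phosphoglucomutase, averaged 52.0 ± 22.1 CPM in KO and 128 ± 59.2 CPM in HET, and Gys1, glycogen synthase, 52.2 ± 26.02 CPM in KO and 121 ± 70.7 CPM in HET (SD, n = 3 each). Of 11 tested other isoenzymes and gluconeogenic genes, 9 were lower in KO (median -0.37). An unadjusted p under 0.05 was found for 1, lower in KO (background 4.29%). That was Pck2, mitochondrial phosphoenolpyruvate carboxykinase, at 94.9, 38.6 and 35.6 CPM in KO, against 306, 119 and 99.8 CPM in HET. Bpgm, bisphosphoglycerate mutase, averaged 29.98 ± 9.62 CPM in KO and 61.8 ± 41.3 CPM in HET (SD, n = 3 each). In the pentose phosphate pathway 6 of 8 genes were lower in KO (median -0.15). H6pd, which serves the endoplasmic reticulum, stood at 65.8, 55.7 and 70.1 CPM in KO, against 114, 177 and 208 CPM in HET, a log2 fold change of -1.38 ± 0.27 (edgeR adjusted p = 0.579, DESeq2 adjusted p = 0.00534). Pgd averaged 185 ± 60.7 CPM in KO and 236 ± 53.7 CPM in HET, and Rpe 40.6 ± 12.6 CPM in KO and 49.6 ± 10.1 CPM in HET.

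Of 16 citric acid cycle genes, 12 stood higher in KO and 4 lower (median 0.14 on the log2 scale). An unadjusted p under 0.05 was found for 1, higher in KO (background 4.3%). That was Idh3a, a subunit of isocitrate dehydrogenase, at 115, 126 and 116 CPM in KO, against 97.7, 78.9 and 84.2 CPM in HET. All KO libraries were above all HET libraries, with a log2 fold change of 0.45 ± 0.18 (edgeR adjusted p = 0.579). This order held for 3 of the 16 genes, Idh3a, Mdh2 and Sdha (background 8.1%). The opposite order held for 1, Sdhc (background 7.42%). Mdh2, malate dehydrogenase, averaged 289 ± 7.64 CPM in KO and 222 ± 35.2 CPM in HET, and Fh1, fumarase, 66.0 ± 7.11 CPM in KO and 52.1 ± 11.8 CPM in HET (SD, n = 3 each). Of 10 genes of the pyruvate dehydrogenase complex, its phosphatases and the pyruvate carrier, 6 were lower (median -0.05) and none had an unadjusted p under 0.05. Mpc2 and Dld, 2 of these 10, lay lower in every KO library (background 7.42%). Mpc2, of the carrier, averaged 24.9 ± 1.76 CPM in KO and 33.8 ± 4.92 CPM in HET. Dld averaged 56.4 ± 21.5 CPM in KO and 85.3 ± 4.52 CPM in HET, and Pdha1 246.5 ± 38.0 CPM in KO and 327 ± 52.9 CPM in HET. In the rest of the machinery of the hypoxia-inducible factor 9 of 12 genes were lower (median -0.21) and none had an unadjusted p under 0.05. Arnt, the stable partner, averaged 42.0 ± 4.52 CPM in KO and 51.9 ± 6.53 CPM in HET. Hif1an, an asparagine hydroxylase that inhibits the factor, averaged 61.6 ± 3.68 CPM in KO and 71.6 ± 3.43 CPM in HET, and Tceb1, elongin C, 74.1 ± 15.3 CPM in KO and 92.8 ± 9.70 CPM in HET.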

How the data were processed

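RNA was measured in 6 libraries, 3 labelled KO and 3 labelled HET. Per the labels' protocols, total RNA taken with Trizol was made into stranded libraries after ribosomal RNA removal. Partek, Bowtie2, cutadapt 1.2.1 and the builds mm10 and GRCm38 are listed in the submitters' processing notes, while counting method and annotation are not given in the sources used here. Per gene, the authors deposited estimated counts, of which 84.4% were whole numbers, and RPKM. The deposited RPKM values were divided by genomic span, since count over RPKM was proportional to span for 92.7% of 10939 genes and to exon length for 1.51% (within 2%).

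Of 48408 rows, 30 with a biotype word in place of the gene were left out, and 7 repeated symbols were summed. Estimated counts were rounded, filtered with filterByExpr, scaled by TMM and tested with edgeR 4.0.16 (R 4.3.3), two-sided, with Benjamini-Hochberg adjustment over 17584 genes. SE is the absolute log2 fold change over the square root of F. A floor of 3 counts was 0.0706 to 0.12 CPM, which covers counting error only. With 3 against 3 libraries an exact permutation test cannot go below 0.1. Alternatives were other scalings, filters, DESeq2 1.42.0, limma 3.58.1 (voom, and on log2 RPKM with a pseudocount of 1 or 0.1), a block for the number that 1 KO and 1 HET title share, and leaving out libraries. The fit was tested on simulated data. Members and lists were chosen with earlier results of these data known. Full statistics were given for members that did not overlap, had an unadjusted p under 0.05 or were called by DESeq2, and in other lists up to 3 genes of smallest p were named. Adding reads of copies, leaving out the libraries with leukocyte transcripts, and leaving out Adm, were chosen after seeing the data. Replicate numbers follow accession order and pair no libraries.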

Additional observations from a re-analysis of the deposited data

How the results depend on the processing

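No gene passed the adjusted threshold in edgeR under any alternative, while DESeq2 called 232 genes, 2 of them members, and limma-voom called 0. Members lower in KO numbered 32 to 36 when 1 library was left out. Genes at an unadjusted p under 0.05 ranged from 648 to 2281 with 1 library left out and numbered 987 without KO replicate 3 and HET replicate 2. Members at that p ranged from 3 to 20 with 1 library left out, and numbered 17 without KO replicate 3 and HET replicate 3 and 3 without KO replicate 3 and HET replicate 2. With 1 library left out, the median log2 fold change ranged from -0.83 to -0.31 for the glycolytic enzymes and from -0.85 to -0.38 for the other targets, and the difference from -0.28 to 0.19. Without KO replicate 3 and HET replicate 3, whose titles share a number, the enzyme median was -1.17 and the difference 0.48. On log2(RPKM + 1) the target median was -0.16 and the difference 0.15, and on log2(RPKM + 0.1) these were -0.38 and 0.03. Without KO replicate 3 and HET replicate 2 the difference was 0.08. The cause of these differences between settings was not tested. With library size alone the median of all genes moved to 0.15, and the medians were -0.42 for the enzymes and -0.52 for the targets.

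No paired analysis was possible because the titles of KO and HET share only 1 number. With a replicate block for that number, 5 members and 1055 genes had an unadjusted p under 0.05.

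Of 666 member values under alternatives, 642 kept their direction and side of the threshold, 2 passed it (Pdk1 and Bnip3 in DESeq2) and 22 reversed. No member passed the threshold in the main fit, so the count of 642 mostly reflects direction. All alternatives reuse the same libraries and are not independent of each other. With 1 library left out, log2 fold changes ranged from -1.23 to 0.21 for Hk2, -0.46 to 0.12 for Pfkm, -0.39 to 0.7 for Aldoc, -0.31 to 0.83 for Ldhb, -0.68 to 0.49 for Pfkfb3, -2.04 to 0.04 for Pfkfb4, -0.57 to 2.11 for Car9, -0.66 to 0.29 for Car12 and -0.74 to 0.22 for Ndrg1. Pfkm also reversed to 0.02 with library size alone, 0.03 without the same-numbered pair and 0.01 without KO replicate 3 and HET replicate 2. Aldoc reversed to -0.46 in limma-voom and -0.38 without that pair, and Pfkfb3 to 0.13 without KO replicate 3 and HET replicate 2.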

Other observations

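The near-identical copies of Eno1 took different shares of its counts in the libraries of the shared title number. Eno1b and Gm4735, which share 85.5% and 86.4% of their windows with Eno1, held 81.4% of the summed counts in KO replicate 3 and 80.4% in HET replicate 3, against 72.1 and 72.9% in KO replicates 1 and 2 and 73 and 74.8% in HET replicates 1 and 2. For Gapdh and Pgk1 the same libraries did not stand apart, at 94.9 and 76.7% in KO replicate 3 and 94.7 and 75.6% in HET replicate 3. The difference was seen in the data and was not tested.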
